A study of Mus musculus with 4 samples.

Results

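The genes described here are the D-type cyclins Ccnd1, Ccnd2 and Ccnd3, their kinases Cdk4 and Cdk6, the kinase inhibitors Cdkn1a, Cdkn1b, Cdkn2c and Cdkn2d, and Rb1, the substrate on which they act. They were taken by symbol from a deposited table of 21937 genes, and all 10 were found in it. RNA had been sequenced from sympathetic ganglia (superior cervical and stellate) taken from mice at postnatal day 60, in a series on the transcription factors Hand2 and Gata3. There are 4 samples, 1 pool per genotype. The Hand2 mutant was Hand2flx/del::DbhCreERT2, with 1 floxed and 1 deleted allele, and the Gata3 mutant was floxed on both alleles with the same Cre. The Hand2 control was Hand2flx/+::DbhCreERT2 and the Gata3 control Gata3flx/+::DbhCreERT2, each with 1 floxed allele beside a wild-type one. The labels give C57BL/6P1 for the Cre and B6.129/SVJ for the Hand2 alleles, with B6.129/SV129 for the Gata3 control and B6.126/SV129 for the Gata3 mutant. Mutants and controls alike bore the tamoxifen-dependent Cre, which the dopamine beta-hydroxylase promoter restricts to noradrenergic cells, and received tamoxifen for 10 days, so the controls share the Cre, the drug and a floxed allele with the mutants. The Gata3 mutant pooled 32 ganglia from 8 mice, described by the submitters as rudiments in which Gata3 was not reduced, and the other pools held 16 ganglia from 4 mice each.

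The table sets a mutant column against a control column without naming the line or saying whether the lines were combined. The DESeq column of the second group mean is called the mutant side here, and the column headed control is called the control side. The heading that reads mutant belongs to another column, which holds the mean of these, so the word mutant rests on the layout of the comparison and no line was assigned. Values are the deposited normalised values, a score of unstated scale. With 1 column on each side there is no replicate error, and higher and lower describe these columns only.

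Cells leave G1 for S phase when D-type cyclins bind Cdk4 or Cdk6 and the active kinase phosphorylates the retinoblastoma protein Rb, which then releases E2F transcription factors. The INK4 inhibitors p18 (Cdkn2c) and p19 (Cdkn2d) block Cdk4 and Cdk6, and the Cip/Kip inhibitors p21 (Cdkn1a) and p27 (Cdkn1b) act on a wider range of cyclin and kinase pairs. Sympathetic neurons of an adult mouse no longer divide, and loss of inhibitors such as p19 and p27 is known to let mouse neurons re-enter the cycle. Glia, macrophages, endothelium and fibroblasts of the ganglion use the same genes. In whole ganglia a change in the number of cells of a type and a change in the RNA per cell cannot be told apart.

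Upstream sequence is shown for the genes on which most of what follows turns, the inhibitor with the widest difference and the leading kinase. Windows of the 250 bases before a RefSeq gene start were searched on both strands in build GRCm38.p6, and 7 of the 10 genes had at least 1 window. Those without one are Ccnd1, Ccnd2 and Rb1. The Cdk4 window lies at chr10:127063285-127063534 on the plus strand, and capitals mark CACGTG, the E-box form that Myc proteins bind. The Cdkn1a window lies before the more upstream of its listed starts, at chr17:29090729-29090978 on the plus strand, and capitals mark the fixed letters of CATGNNNNNNCATG, the core of a pair of p53 half-sites.
Cdk4: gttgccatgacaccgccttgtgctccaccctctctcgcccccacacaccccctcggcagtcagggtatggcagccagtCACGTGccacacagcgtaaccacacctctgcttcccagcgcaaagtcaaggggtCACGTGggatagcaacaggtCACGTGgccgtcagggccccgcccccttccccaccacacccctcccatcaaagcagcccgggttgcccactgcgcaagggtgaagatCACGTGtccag
Cdkn1a: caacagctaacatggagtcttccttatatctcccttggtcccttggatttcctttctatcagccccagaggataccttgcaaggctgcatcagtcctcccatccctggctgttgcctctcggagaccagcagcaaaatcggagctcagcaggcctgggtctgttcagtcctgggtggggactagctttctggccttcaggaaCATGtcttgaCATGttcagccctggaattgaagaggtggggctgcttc
The Cdk4 window held 4 matches, with first bases at -172, -118, -98 and -11 from the start. At least 1 CACGTG stood in 6.02% of the 32851 windows of all genes, and 4 or more stood in 7 windows. Cdk6 had 1 match at -220, and no other window of the 10 genes had one. CACGTG is also a case of the general E-box CANNTG, the class that bHLH factors such as Hand2 bind, which 66.2% of all windows held. Apart from the CACGTG matches, the only CANNTG in the windows of these genes lay at -187 from the second Cdkn1a start. The p53 core pair was at -48 from the first Cdkn1a start and in 0.49% of all windows. A match describes the letters in a window and does not show that a factor binds there.

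The D cyclins, the regulatory subunits of the G1 kinases, were slightly higher on the mutant side. Ccnd1, which encodes cyclin D1, had a value of 2632 on the mutant side and 2343 on the control side, a ratio of 1.12 (log2 ratio 0.17). Ccnd3, the gene of cyclin D3, had 718 on the mutant side and 660 on the control side, a log2 ratio of 0.12. Ccnd2, the gene of cyclin D2, had 271 on the mutant side and 243 on the control side, a log2 ratio of 0.16. The cyclins thus shifted by similar small amounts although their levels lie far apart.

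The kinases also had higher values on the mutant side. Cdk4 had 732 on the mutant side and 637 on the control side, a ratio of 1.15 (log2 ratio 0.20). Cdk6, the related kinase, had only 29 on the mutant side and 16 on the control side. Its log2 ratio of 0.82 was the highest of the 10 genes but rests on the lowest values of the group, under the minimum mean value of 50 used for calls.

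Among the inhibitors Cdkn1a showed the widest difference of the well-detected genes. Cdkn1a, which encodes p21, a target of p53, had 384 on the mutant side and 293 on the control side, a ratio of 1.31 (log2 ratio 0.39). Cdkn1b, which encodes p27, had 1468 on the mutant side and 1277 on the control side, a ratio of 1.15 (log2 ratio 0.20). The Cip/Kip genes therefore stood on the higher side together. The INK4 genes were low and went opposite ways. Cdkn2c had 135 on the mutant side and 115 on the control side (log2 ratio 0.23), and Cdkn2d had 45 on the mutant side and 51 on the control side (log2 ratio -0.18). Rb1, the pocket protein that holds E2F factors in check, had 763 on the mutant side and 833 on the control side, a ratio of 0.916 (log2 ratio -0.13).

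**Figure D1:**
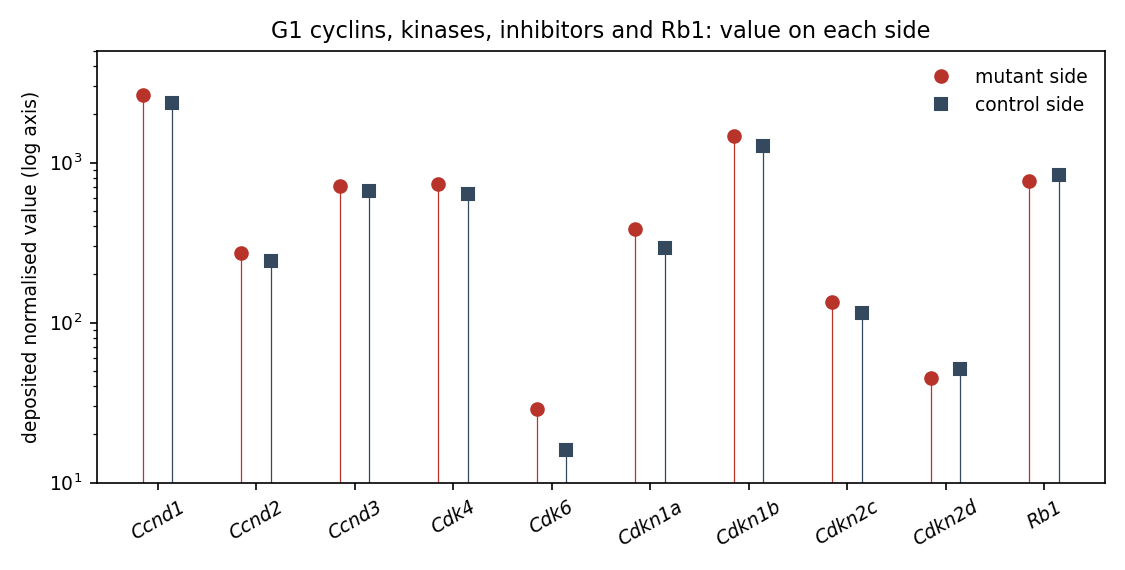
Deposited normalised value (log axis) of each of the 10 genes on the mutant side (red circles) and the control side (dark squares), 1 value per side. Ccnd1 and Cdkn1b are the highest on either side, Cdk6 is the lowest, and Cdkn2d and Rb1 are the genes with the lower value on the mutant side.

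In all, 8 of the 10 genes had the higher value on the mutant side and 2 the lower, against 50.3% higher among the 12043 genes whose mean value reached 50. The median log2 ratio of the 10 genes was 0.18, and over all 12043 genes it was 0.0026, with the central 95% between -0.46 and 0.40. Of the 10 genes, 8 reached the mean value of 50, and 7 of those 8 were higher. None of the 10 differed by 2-fold, where 0.0332% of all genes were that much higher and 0.448% that much lower (0.482% in all), and none of the 8 differed by 1.5-fold, where 2.15% of all genes did. A ratio under 1.2-fold either way was seen for 8 of the 10. The share of all genes under that fold was not counted, so nothing particular to these genes is read from it. Genes that share a pathway are not independent of each other, and the count of 8 describes these columns.

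Ratios spread more widely among low genes, so each gene was set beside those of a like level. Genes with a mean value between 200 and 1000 had a central 95% of log2 ratios from -0.41 to 0.35, and Cdkn1a, at 0.39, lay above it. The bands were cut from these same genes, so the 2.51% of the 12043 genes above their band follows from the rule. A like share lies below it by the same rule. For genes with a mean value of 1000 or more the range was -0.30 to 0.24, which held Ccnd1 at 0.17 and Cdkn1b at 0.20. Between 50 and 200 it was -0.72 to 0.57, and Cdkn2c lay inside. Between 20 and 50 it was -1.34 to 0.90, wide enough to hold Cdk6 at 0.82 and Cdkn2d at -0.18. Cdkn1a was thus the 1 gene of the 8 at the minimum outside the central 95% of its level, counting both sides.

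**Figure D2:**
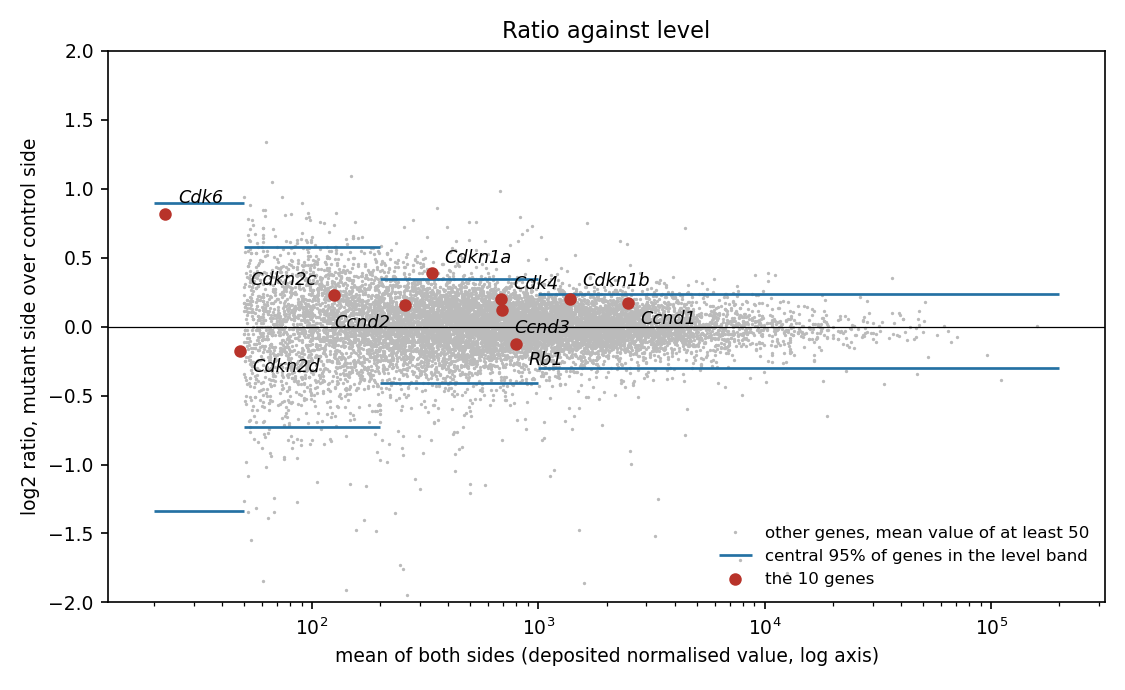
Log2 ratio of the mutant side over the control side against the mean of both sides (log axis) for genes whose mean value reached 50 (grey, those beyond 2 on the log2 scale not drawn), with the 10 genes in red. Blue lines give the central 95% of genes in each band of level, and Cdkn1a at 0.39 is the red point above its band.

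The authors' deposited table gives all 10 genes an adjusted p of 1. Over the whole of it 62 of 16990 genes, or 0.365%, have an adjusted p under 0.05. The smallest unadjusted p among the 10 in the authors' deposited table is 0.156, for Cdkn1a, followed by 0.233 for Cdkn1b and 0.253 for Ccnd1. The largest in the authors' deposited table is 0.822, for Cdkn2d. The authors' deposited table puts 348 genes, 2.05% of those tested, at an unadjusted p under 0.05, and none of the 10 is among them. The sources used here do not say how many libraries stand behind these p-values. A p of this size does not show that the levels were alike.

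To compare levels between genes, values were divided by the length of each gene's exons, merged over transcripts of GENCODE M21 (GRCm38). Ccnd1 had 559 per kilobase on the mutant side and 498 on the control side, and it made up 83.5% of the summed D cyclin level per kilobase on the mutant side and 83.1% on the control side. Ccnd3 gave 12.2% on the mutant side and 12.6% on the control side, and Ccnd2 gave 4.3% on either. Cdk4 held 99.1% of the summed Cdk4 and Cdk6 level on the mutant side and 99.4% on the control side. The leading cyclin and the leading kinase of these ganglia were thus Ccnd1 and Cdk4 on either side.

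Cdkn1b led the inhibitors, with 322 per kilobase on the mutant side and 281 on the control side. Within the Cip/Kip sum of Cdkn1a and Cdkn1b, Cdkn1a took 25.1% on the mutant side and 22.7% on the control side. Within the INK4 sum, Cdkn2c took 63.7% on the mutant side and 56.9% on the control side. The D cyclin sum was 670 per kilobase on the mutant side and 599 on the control side, a ratio of 1.12. The kinase sum had a ratio of 1.15, the Cip/Kip sum 1.19, the INK4 sum 1.05 and Rb1 0.916. D cyclins per kinase came to 2.94 on the mutant side and 3.04 on the control side, and Cip/Kip inhibitors per D cyclin came to 0.643 on the mutant side and 0.606 on the control side, all as levels per kilobase. INK4 inhibitors per kinase came to 0.347 on the mutant side and 0.381 on the control side. The INK4 sum includes Cdkn2d (45 on the mutant side and 51 on the control side), whose mean value lies under the minimum used for calls. Cdkn2c alone had a ratio of 1.17, against 1.15 for the kinase sum. The lower INK4 quotient on the mutant side therefore rests on Cdkn2d.

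By level per kilobase the mutant side ran Ccnd1, Cdkn1b, Cdk4, Rb1, Cdkn1a, Ccnd3, Cdkn2c, Ccnd2, Cdkn2d and Cdk6. The control side had the same order at 8 of the 10 places, with Cdkn2d (32.4 per kilobase) ahead of Ccnd2 (25.8). On the mutant side Ccnd2 had 28.8 and Cdkn2d 28.6, nearly equal. With the length of the longest transcript in place of merged exons Cdk4 came before Cdkn1b, at 357 per kilobase against 322 on the mutant side. Rb1 (164) then came after Ccnd3 (186) and Cdkn1a (185) on the mutant side. On the control side Rb1 (179) stayed before Ccnd3 (171) and Cdkn1a (141). The places, and the shares and quotients per kilobase given above, therefore depend on the gene model. These sums describe RNA and say nothing of protein, which for D cyclins, p21 and p27 is set largely by degradation.

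**Figure D3:**
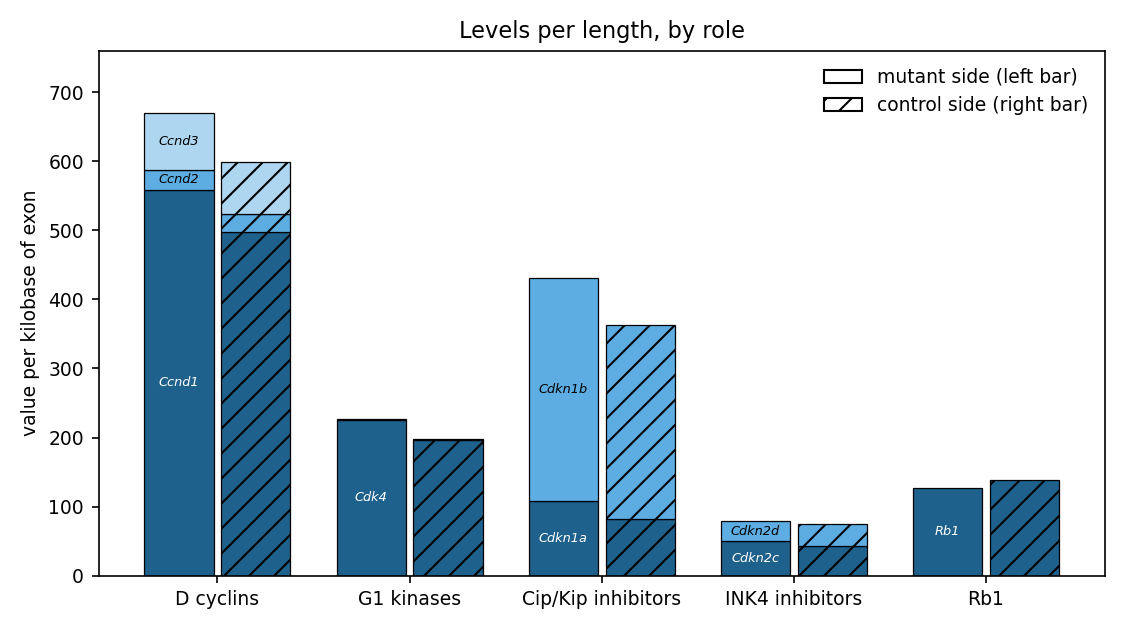
Value per kilobase of exon, stacked by gene within each role, on the mutant side (left, plain) and the control side (right, hatched). Ccnd1 makes up most of the D cyclin bars, Cdk6 is too low to be seen, and the Rb1 bar is the one that is lower on the mutant side.

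Several of these genes share exonic sequence with a gene on the opposite strand, and the sources used here do not say whether the authors' counting used strand. In GENCODE M21, Oraov1 (named LTO1 there) covers 23.4% of the Ccnd1 exonic bases, and it had 626 on the mutant side and 646 on the control side. Tspan31, a tetraspanin gene, covers 19.7% of Cdk4 and had 2237 on the mutant side and 2262 on the control side. Bysl covers 4.11% of Ccnd3 and had 643 on the mutant side and 564 on the control side. Rcbtb2 covers 8.11% of Rb1 and had 732 on the mutant side and 646 on the control side, and Lpar6 covers 6.78% of Rb1 and had 64 on either side. A transcript without a row in the table covers 7.68% of Cdkn1a, and others cover 3.95% and 3.91% of Ccnd2 and 2.63% of Cdk6. Cdkn1b, Cdkn2c and Cdkn2d overlap no other annotated exon. A processed pseudogene is annotated for Ccnd3. The values of the other 7 genes, Cdkn1a among them, are uncertain to that extent.

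The genes around this pathway were read from 8 lists, of whose 113 entries 112 matched a row and 94 reached a mean value of 20, counted as detected here. A gene taken at that minimum was higher on the mutant side in 50% of 13171 cases. The other pocket proteins and the E2F and DP factors had 7 of 10 detected members higher and 3 lower, with a median log2 ratio of 0.10. E2f1, an activator of S phase genes, had 311 on the mutant side and 269 on the control side (log2 ratio 0.21), and Tfdp1, an E2F dimer partner, had 469 on the mutant side and 518 on the control side (-0.14). Neither passed 2-fold, and by the authors' deposited table every member with an adjusted p has one above 0.05.

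Late G1 and S cyclins and kinases had 6 of 9 detected members higher and 3 lower, with a median of 0.07. Ccne1, which encodes cyclin E1, the partner of Cdk2 at the start of S phase, had 629 on the mutant side and 428 on the control side, a ratio of 1.47 (log2 ratio 0.55), above the 0.35 that bounds the central 95% of its level. The authors' deposited table gives Ccne1 an unadjusted p of 0.0156 and an adjusted p of 1. Ccne2, its relative, went the other way with 49 on the mutant side and 60 on the control side (log2 ratio -0.29), and Cdk2, named after its values were seen, had only 50 on the mutant side and 60 on the control side.

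S and M phase genes had 10 of 13 detected members higher, 2 lower and 1 equal, with a median log2 ratio of 0.15. Mcm3, a subunit of the replicative helicase, had 89 on the mutant side and 60 on the control side (log2 ratio 0.56), and Plk1, a mitotic kinase, had 20 on the mutant side and 24 on the control side (-0.25). Replication genes that also serve DNA repair were well detected, such as the sliding clamp gene Pcna with 874 on the mutant side and 784 on the control side and the helicase gene Mcm6 with 509 on the mutant side and 493 on the control side. Lower values were held by Mki67, Top2a, Cdk1 and Ccnb1, genes of dividing cells. Mki67 had 31 on the mutant side and 27 on the control side, Top2a had 23 on the mutant side and 16 on the control side, and the mitotic genes Cdk1 and Ccnb1 had 9 and 7 on the mutant side and 3 and 1 on the control side. Pcna, Mcm6 and these 4 genes were named after their values were seen. No member whose mean value reached 50 passed 2-fold, and by the authors' deposited table none is called at 0.05.

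The p53 pathway around Cdkn1a had mostly lower values, unlike Cdkn1a itself. Of 17 detected members 4 were higher and 13 lower, where 48.8% of the 12043 genes at the higher minimum were lower, and the median log2 ratio was -0.12. Phlda3, a p53 target that restrains Akt, had 614 on the mutant side and 800 on the control side (log2 ratio -0.38). Gadd45b, a stress response gene, had 23 on the mutant side and 19 on the control side (0.26). Trp53, which encodes p53, had 537 on the mutant side and 584 on the control side, and its target Mdm2 had 680 on the mutant side and 743 on the control side, both named after their values were seen. None of the 17 passed 2-fold.

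The remaining inhibitors were scarce. Of 5 list entries, Cdkn1c, the gene of p57, was detected, with 41 on the mutant side and 35 on the control side (log2 ratio 0.22). The other detected entry, Cdkn2aip, encodes a partner of the Cdkn2a product ARF and not a kinase inhibitor. It had 249 on the mutant side and 290 on the control side (-0.22). Cdkn2a itself, named after its values were seen, had 2 on the mutant side and 3 on the control side. Genes that degrade D cyclins, p21 and p27 had 7 of 15 detected members higher and 8 lower, with a median of -0.02. Fbxw8, an F-box protein gene linked to cyclin D1 turnover, had 2345 on the mutant side and 2061 on the control side (log2 ratio 0.19). Fbxo4, another F-box gene of that group, had 140 on the mutant side and 171 on the control side (-0.29).

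Factors upstream of D cyclins and inhibitors held the only entries of these 8 lists that passed 2-fold at a mean value of at least 50. Egr1, an immediate early zinc finger factor, had 115 on the mutant side and 392 on the control side (log2 ratio -1.76), and the AP-1 gene Fos had 82 on the mutant side and 230 on the control side (-1.48). Adjusted p-values of 2.52e-05 for Egr1 and 0.0468 for Fos stand in the authors' deposited table. At the other end Klf4, a zinc finger factor known to activate Cdkn1a, had 99 on the mutant side and 66 on the control side (log2 ratio 0.58). Myc had 165 on the mutant side and 221 on the control side (-0.42) and was named after its values were seen. Its product binds the E-box form marked in the Cdk4 window, but binding there was not measured. Of 16 detected members 8 were higher and 8 lower, with a median of 0.01, so the list had no common direction.

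**Figure D4:**
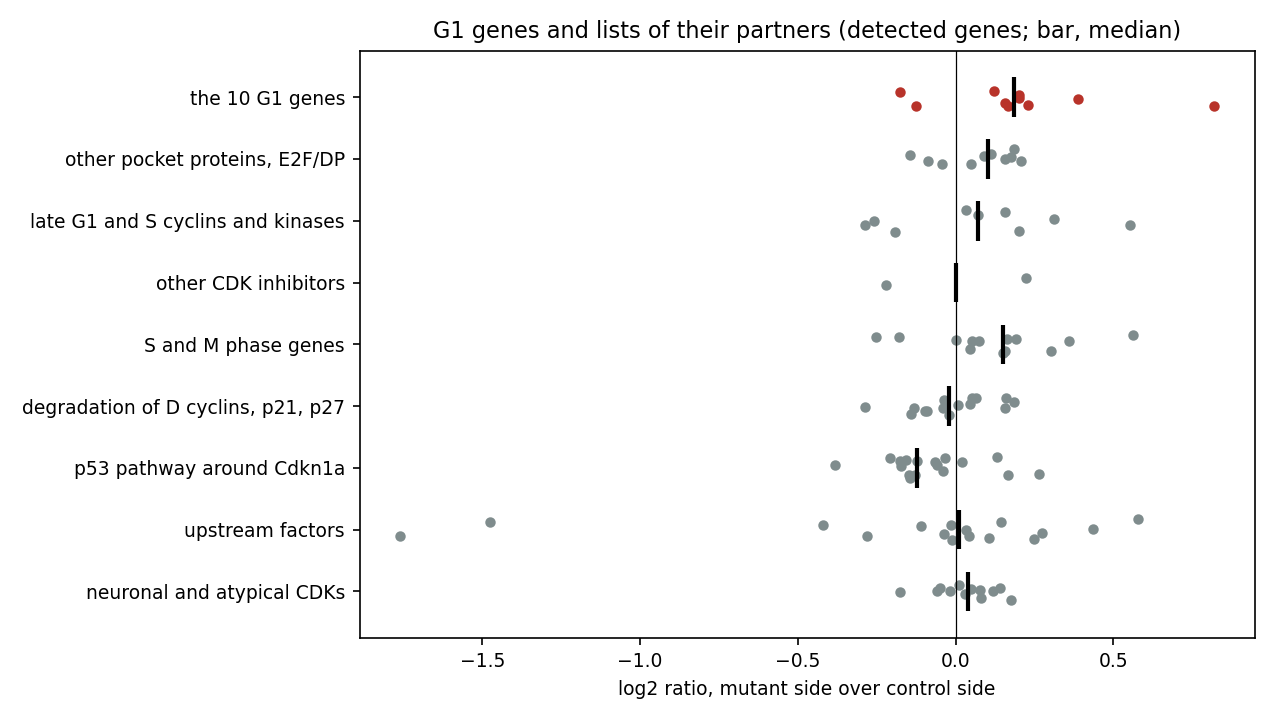
Log2 ratio of the mutant side over the control side for detected genes (mean value of at least 20), 1 point per gene, for the 10 G1 genes (red, top) and 8 partner lists (grey), with a black bar at each median. The 10 genes have a median of 0.18, the p53 list one of -0.12, and Egr1 and Fos are the points far to the left.

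Markers of several cell types also differed in value between the columns, and these values stand beside every ratio above. Macrophage markers were higher on the mutant side in 11 of 11 genes and summed to 4147 on the mutant side and 3031 on the control side. Markers of satellite glia and Schwann cells were higher in 7 of 10 and summed to 80316 on the mutant side and 67385 on the control side, a ratio of 1.19, while endothelial markers were higher in 5 of 7 (1469 on the mutant side and 1351 on the control side). Noradrenergic neuron markers were lower in 9 of 11 and summed to 349977 on the mutant side and 401306 on the control side. They include the factors of the series. Hand2 had 2001 on the mutant side and 4749 on the control side, and Gata3 had 1050 on the mutant side and 1105 on the control side. These values were not used to name the line or the sides. Fibroblast markers were lower in 6 of 7 (23276 on the mutant side and 25005 on the control side). Skeletal muscle markers were lower in 9 of 9 and summed to 61 on the mutant side and 1753 on the control side, with Mb listed at 0 on the mutant side. The sensory neuron markers reported were lower in 5 of 6 and summed to 235 on the mutant side and 879 on the control side, and Slc17a6 had 7 on the mutant side and 128 on the control side. Xist had 1595 on the mutant side and 114 on the control side, and the 4 Y-linked genes examined were listed at 0 on the mutant side. On the control side these Y-linked genes had 1206 (Ddx3y), 587 (Eif2s3y), 483 (Uty) and 282 (Kdm5d). The part of cell make-up, which was not measured here, or of sex in the ratios of the G1 genes was not tested, since with 1 column a side none of these can be told apart from genotype.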

How the data were processed

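Per the submitters' processing notes the build was mm9 and the tools included DESeq, HTSeq 0.5.4p1, SAMtools 0.1.19 and TopHat2 2.0.8, with no role or settings. Per the file headers the deposited table holds the columns of a DESeq comparison. Its control column and second group mean, a score that by DESeq's naming the authors made by dividing reads per gene by size factors and averaging within a side, are whole numbers. They were not treated as counts, because no column matches a sample. They sum to 19135221 on the mutant side and 19343986 on the control side, and whether these are read totals is unknown, so no counting error is given. The deposited fold ratio equals mutant side over control side in all 16990 genes that have one (relative tolerance 1e-09). The authors' p-values were copied, not recomputed. The column headed mutant equals the mean of the others in all 21937 genes and was not used.

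Log2 ratios used a pseudocount of 1, which understates those of low genes. Calls needed a mean value of at least 50 and 2-fold. Python 3.11.15 and pandas 2.3.3 were used. The log2 ratio and the 2-fold call were tested on simulated counts, with changes wider than any seen for the 10 genes. The bands, length steps and sequence searches were not part of that test. The 10 genes, the lists and the bands of level were chosen with earlier results of these data known. Named genes were all 10, entries of the 8 pathway lists past 2-fold or with an adjusted p under 0.05, and the highest and lowest detected ratio of each of those lists, with up to 2 genes per marker list, besides those said to be named afterwards. GENCODE M21 gave exon lengths, and RefSeq (GRCm38.p6) gave sequences and older symbols. Its coordinates were not joined to mm9. Separate comparisons per line were not possible. A marker gene of the sensory list is not reported here.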

Additional observations from a re-analysis of the deposited data

How the results depend on the processing

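The alternatives were division by column sums or upper quartiles, pseudocounts of 0.5 and 10, and other fold and mean value minimums. Subtraction of the median of genes of like exonic length was chosen after seeing the data. Wherever recomputed, none of the 10 genes passed 2-fold. None of the 8 at the minimum mean value of 50 passed 1.5-fold (Cdk6, under that minimum, has a ratio of 1.81). Throughout, 8 of the 10 had the higher value on the mutant side and none changed direction. Pseudocounts, fold thresholds and minimums cannot change a direction. Column sums and upper quartiles moved log2 ratios by about 0.016 and 0.011, and the length medians ran from -0.05 to 0.11. The log2 ratio nearest to none, that of Ccnd3, was 0.12. No alternative could thus turn a direction, and the unchanged count of 8 is no support for it. The median log2 ratio of the 10 ran from 0.17, after the subtraction for length, to 0.20, with column sums. Counts over all genes moved more. At least 2-fold higher and lower were 4 and 54 genes as reported, 22 and 110 with a minimum mean value of 20, and 780 and 1141 with no minimum, and a 1.5-fold threshold gave 82 and 177. Lower minimums admit genes of low value, whose ratios spread widely. Against the 500 genes nearest in mean value, also chosen after seeing the data, Cdkn1a remained the 1 gene of 8 outside the central 95%, at 0.39 against an upper bound of 0.34. No paired analysis was possible because the table has 1 column on each side and every group has 1 sample, and for the same reason no replicate could be left out. Cdk6 and Cdkn2d, under a mean value of 50, are the least certain of the 10.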

Other observations

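Neuronal and atypical kinases related to the cell cycle ones, with their partners, differed by small amounts between the sides. Of 12 detected genes of the list of neuronal and atypical kinases and partners 8 were higher and 4 lower, with a median log2 ratio of 0.04. Cdk5, the kinase of postmitotic neurons, had 2154 on the mutant side and 2179 on the control side, and its activator gene Cdk5r1 (p35) had 1107 on the mutant side and 1098 on the control side, both named after their values were seen. Cdk17 had the highest log2 ratio of the list, with 883 on the mutant side and 781 on the control side (0.18), and Cdk18 had the lowest, with 359 on the mutant side and 406 on the control side (-0.18).

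Exonic length, merged over transcripts, went with the ratio across the 10875 genes that had a length and a mean value of at least 50. With genes ranked by exonic length and divided into 10 equal bins, the shortest bin had a median log2 ratio of 0.11 and the longest -0.05. Cdkn2d, with 1574 exonic bases, has a length within the shortest bin, but its mean value of 48 kept it out of the bins. Its log2 ratio of -0.18 is -0.28 relative to the median of that bin. It rests on low values, 45 on the mutant side and 51 on the control side.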
